A study of Mus musculus with 8 samples.

Results

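The cortical hem is the medial edge of the embryonic cortex, and the accessibility of 9 genes known for their part in or response to its signalling is described here in single-nucleus ATAC-seq of the wild-type mouse forebrain. The 9 genes were Wnt3a, Wnt9a, Wnt8b, Wnt2b, Wnt5a, Rspo1, Lmx1a, Lef1 and Axin2, out of 21938 protein-coding genes, and the peaks over their bodies and the 20 kb upstream of them formed 122 elements out of 292532 regions merged over 8 samples. The genes were chosen by their counts in the nuclei of a single sample, the cortex at E14.5, where several of them were the most open genes of a small group of nuclei. Values of that sample are therefore given as a description, without a test. The tests compare the other 7 samples.

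The 8 samples came from WT embryos: cortex (CTX) at E12.5 and at E14.5 with 1 sample each, and the medial, lateral and caudal ganglionic eminences (MGE, LGE and CGE, jointly GE) at E12.5 with 2 samples each. The age and the sample cannot be told apart between the 2 cortical samples. The labels do not say whether replicates came from separate litters, so the p-values measure the spread between these libraries. Chromatin accessibility counts how often the transposase cut DNA in a region, and says nothing directly about RNA.

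The hem secretes Wnt and BMP proteins, patterns the neighbouring hippocampal field and is a source of Cajal-Retzius neurons. Wnt ligands bind Frizzled receptors and Lrp co-receptors, which stabilises β-catenin, and β-catenin then joins TCF/LEF factors on DNA. R-spondins strengthen the signal by keeping Frizzled receptors at the membrane. Wnt3a, Wnt8b, Wnt2b, Wnt5a and Wnt9a are ligands, Rspo1 is an R-spondin, Lmx1a is a LIM-homeodomain factor of the hem and roof plate, Lef1 is a TCF/LEF factor, and Axin2 is a negative feedback component that the pathway itself switches on.

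Libraries held 3465 to 6845 nuclei and 77387940 to 138873845 counts in peaks, with medians of 14584 to 22209.5 counts per nucleus. The length called as peak ran from 87.2 to 168 Mb and was longest in CTX E12.5, which matters below because a gene's count is summed over its called peaks. Pairs of libraries shared 15 to 56 cell barcodes. The share of odd values among the nonzero counts was 9.54 to 10.4% in the 4 libraries numbered 1, CTX E12.5 among them, and 5.17 to 5.85% in the 4 numbered 2, CTX E14.5 among them, and the part of this difference in the results was not tested beyond the replicate block. The labelled tissues matched their markers: 6 of 6 glutamatergic markers were called more open in CTX E12.5 than in the eminences (log2 differences 0.67 to 3.68). Of the GABAergic markers, 5 of 6 were called less open (-0.83 to -2.97 over all 6). Over all genes 10.0% were called higher and 1.64% lower. Like those of all genes, these calls were lost once the covered peak length was an offset.

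The sequences below are the central 300 bases of the elements on which the results turn, read from the plus strand of GRCm38. The first 3 are elements at which the hem-like nuclei of CTX E14.5 stood far from the other nuclei, and the last 2 are elements that differed between CTX E12.5 and the eminences. Capitals mark TAATTA, a core that homeodomain factors such as Lmx1a can bind.
Wnt3a intron, chr11:59264195-59264494: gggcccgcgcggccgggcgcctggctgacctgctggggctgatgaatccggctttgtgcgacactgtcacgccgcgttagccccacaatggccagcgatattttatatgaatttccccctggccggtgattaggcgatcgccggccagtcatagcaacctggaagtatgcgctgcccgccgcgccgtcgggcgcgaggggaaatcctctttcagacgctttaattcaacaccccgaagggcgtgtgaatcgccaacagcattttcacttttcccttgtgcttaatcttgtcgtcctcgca
Wnt9a body, 3′ part, chr11:59329627-59329926: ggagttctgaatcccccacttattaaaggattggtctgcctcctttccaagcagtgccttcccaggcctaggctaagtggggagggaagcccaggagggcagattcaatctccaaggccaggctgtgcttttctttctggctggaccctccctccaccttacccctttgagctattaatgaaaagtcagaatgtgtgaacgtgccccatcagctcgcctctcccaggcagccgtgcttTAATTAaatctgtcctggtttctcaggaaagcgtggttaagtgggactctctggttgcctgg
Lmx1a intron, chr1:167761949-167762248: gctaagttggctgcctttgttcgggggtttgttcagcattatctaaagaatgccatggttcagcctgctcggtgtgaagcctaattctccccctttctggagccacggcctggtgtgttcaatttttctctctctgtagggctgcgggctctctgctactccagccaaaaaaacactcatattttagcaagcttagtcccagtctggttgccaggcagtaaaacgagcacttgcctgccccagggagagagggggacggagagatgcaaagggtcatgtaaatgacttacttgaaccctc
Between the Wnt3a and Wnt9a starts, chr11:59302761-59303060: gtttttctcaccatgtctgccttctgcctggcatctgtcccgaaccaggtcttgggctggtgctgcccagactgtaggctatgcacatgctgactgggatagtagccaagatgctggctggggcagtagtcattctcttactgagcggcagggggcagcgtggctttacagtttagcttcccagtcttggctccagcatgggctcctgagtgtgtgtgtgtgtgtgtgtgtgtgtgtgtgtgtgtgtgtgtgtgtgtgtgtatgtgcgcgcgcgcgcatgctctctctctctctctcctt
Lef1 body, chr3:131155984-131156283: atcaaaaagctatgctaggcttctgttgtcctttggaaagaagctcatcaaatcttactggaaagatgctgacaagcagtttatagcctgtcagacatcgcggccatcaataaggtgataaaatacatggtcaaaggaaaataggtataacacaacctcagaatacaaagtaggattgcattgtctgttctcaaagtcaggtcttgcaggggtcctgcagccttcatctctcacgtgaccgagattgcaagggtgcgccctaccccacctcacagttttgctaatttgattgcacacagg

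These letters and 2 TCF/LEF cores were searched for on both strands of these windows and of the matching windows of all 292532 regions. The cores CTTTGAT and CTTTGAA were found in 5.34% and 7.57% of all windows, and TAATTA in 14%. Of 47 windows of elements named for the 9 genes, 1 held CTTTGAT (a Lef1 exon element), 1 held CTTTGAA (a Wnt8b intron element) and 2 held TAATTA (the Wnt9a element printed above and an Axin2 upstream element). The letters CTTTGAT and CTTTGAA are in none of the 5 windows printed, which says nothing about binding elsewhere in the elements.

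In CTX E12.5, Wnt3a, Wnt9a and Lef1 were more open than in the eminences, and the other 6 genes did not pass the test. All 3 calls were lost with a replicate block and with a covered-length offset, whose values follow the genes' own. The 3 called genes were all higher, against a background of 10.0% of 18982 tested genes called higher, 1.64% called lower and 11.7% called in either direction. The median log2 difference of the 9 genes was 0.14, against -0.01 over all genes tested. Values are normalised CPM, the counts in the gene's body and 20 kb upstream relative to all counts assigned to genes, scaled by TMM. A sample's sum cannot tell more open nuclei from more counts in each. Values are listed with replicate 1 before replicate 2, and CTX E12.5 is assumed to vary as the eminence pairs do.

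Wnt3a had 62.9 normalised CPM in CTX E12.5 and 82.0 in CTX E14.5, against 45.8 and 38.4 in MGE, 33.5 and 37.7 in LGE, and 31.0 and 35.1 in CGE. Both cortical samples lay above all 6 eminence samples, and the eminences followed in the order MGE, LGE, CGE, with LGE and CGE overlapping. The log2 difference between CTX E12.5 and the eminences was 0.77 (SE 0.15, adjusted p = 0.0169, edgeR quasi-likelihood test).

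Wnt9a is the neighbour of Wnt3a on chromosome 11. The 2 genes are transcribed away from each other and shared 7 elements, so their values are not independent. Wnt9a had 51.3 normalised CPM in CTX E12.5 and 80.7 in CTX E14.5, against 39.2 and 33.1 in MGE, 29.4 and 33.4 in LGE, and 29.3 and 33.2 in CGE. Both cortical samples again lay above every eminence sample, while the 3 eminences overlapped. The log2 difference was 0.64 (SE 0.15, adjusted p = 0.0329 by edgeR).

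Wnt8b, a ligand of the medial cortex, had 33.6 normalised CPM in CTX E12.5 and 209 in CTX E14.5, against 49.6 and 60 in MGE, 8.07 and 46.4 in LGE, and 33.5 and 37.7 in CGE. CTX E12.5 lay inside the range of the eminences, and the LGE replicates were far apart. The log2 difference was -0.16 (SE 0.70, adjusted p = 0.931). Its last element overlaps the neighbour Sec31b, and peaks there were counted for Wnt8b as well. In CTX E14.5 that element held most of the Wnt8b counts, so the value of 209 is largely that of the shared element.

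Wnt2b had 27.6 and 29.0 normalised CPM in CTX E12.5 and CTX E14.5, against 30.1 and 20.3 in MGE, 27.9 and 24.6 in LGE, and 27.1 and 21.4 in CGE. All 5 groups overlapped or lay within the spread of MGE (log2 difference 0.13, SE 0.23, adjusted p = 0.785). Wnt5a, which also signals without β-catenin, had 47.5 and 52.2 normalised CPM in the cortical samples, against 75.1 and 59.6 in MGE, 46.5 and 56.2 in LGE, and 42.6 and 44.8 in CGE. MGE was highest in both replicates, and the log2 difference of CTX E12.5 was -0.16 (SE 0.18, adjusted p = 0.612).

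Rspo1 had 8.86 normalised CPM in CTX E12.5 and 70.6 in CTX E14.5, against 18.3 and 13.3 in MGE, 3.29 and 7.65 in LGE, and 5.29 and 8.78 in CGE. CTX E12.5 was close to the upper CGE replicate and below both MGE replicates (log2 difference 0.06, SE 0.44, adjusted p = 0.969). Lmx1a had 94.4 normalised CPM in CTX E12.5 and 149 in CTX E14.5, against 90.9 and 82.5 in MGE, 62.7 and 78.9 in LGE, and 73.0 and 67.0 in CGE. CTX E12.5 was just above the higher MGE replicate, and the log2 difference of 0.32 did not pass the test (SE 0.16, adjusted p = 0.258).

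Lef1 had 162 normalised CPM in CTX E12.5 and 264 in CTX E14.5, against 84.1 and 88.3 in MGE, 108 and 105 in LGE, and 123 and 108 in CGE. It was the member with the reverse order among eminences, lowest in MGE, and both cortical samples lay above every eminence sample (log2 difference 0.67, SE 0.13, adjusted p = 0.0161). Axin2 had 142 and 228 normalised CPM in CTX E12.5 and CTX E14.5, against 135 and 131 in MGE, 124 and 134 in LGE, and 125 and 127 in CGE. The eminence samples spanned a narrow range below CTX E12.5, and the log2 difference was 0.14 (SE 0.12, adjusted p = 0.535).

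**Figure D1:**
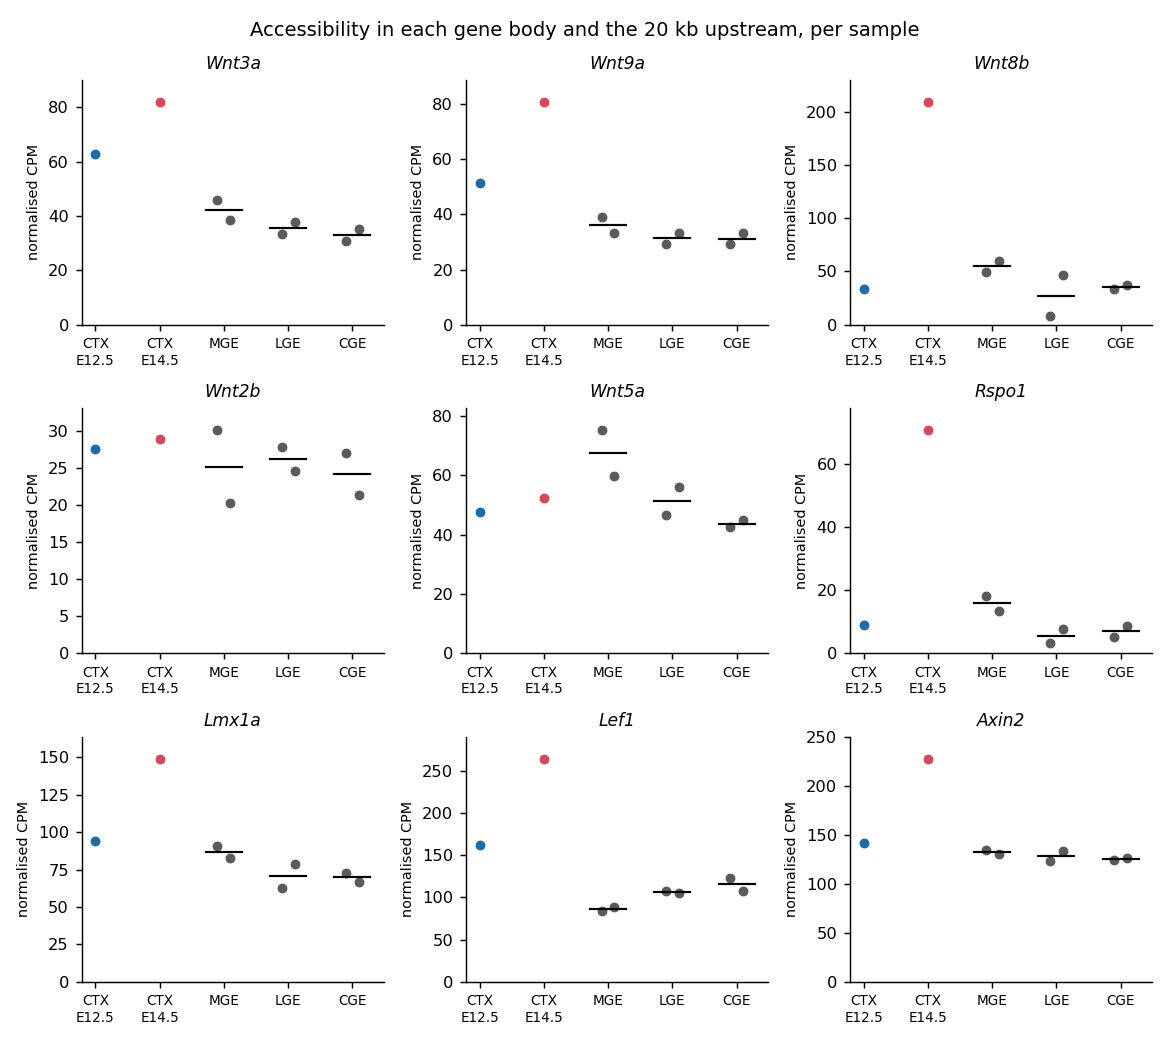
Normalised CPM (y axis, linear from 0) of the 9 genes in each sample, with 1 point per sample and a line at the mean of the 2 replicates of an eminence. CTX E14.5 lies above all other samples for 7 genes, Wnt2b and Wnt5a being the exceptions, and it is the sample that chose the genes.

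The 3 called genes also had a longer stretch called as peak in CTX E12.5 than in any eminence sample. This was not particular to them. Of the genes not called, Wnt8b (7.56 kb against at most 6.79), Wnt2b (7.02 against 6.92) and Axin2 (22.9 against 18) had it as well. Wnt3a had 12.7 kb of peak in CTX E12.5 against 5.97 to 10.3 kb in the eminence samples, and Lef1 had 33.2 kb against 11.8 to 26.1 kb. Per covered kilobase, CTX E12.5 lay inside the range of the eminences for all 3 called genes: 4.94 against 3.41 to 5.61 for Wnt3a, 4.18 against 2.79 to 4.78 for Wnt9a, and 4.88 against 3.86 to 7.13 for Lef1. With covered length as an offset the log2 differences were 0.15, 0.18 and -0.09, and 0 of the 9 genes were called, as were 0 of all genes. With replicate number as a block the 3 genes also missed the threshold (adjusted p = 0.0619, 0.0868 and 0.0562 by edgeR), and without LGE replicate 1 or LGE replicate 2 only Wnt3a passed it. Wnt9a also missed it without CGE replicate 1 or CGE replicate 2 and with 2 kb in place of 20 kb upstream (adjusted p = 0.104 by edgeR). Wnt3a missed it with regions found in all samples (0.079). With 1 eminence replicate left out, the log2 differences were 0.72 to 0.81 for Wnt3a, 0.6 to 0.67 for Wnt9a and 0.63 to 0.7 for Lef1.

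Among MGE, LGE and CGE, 0 of the 9 genes were called by edgeR, against a background of 0.0685% (13 genes). At an unadjusted p under 0.05 there were 3, Wnt5a, Rspo1 and Lef1, as there were 1675 of all 18982 genes, and DESeq2 called these 3, among 1530 of 19031 genes. Rspo1 was 1.54 higher in MGE than in LGE on the log2 scale and 1.17 higher than in CGE (adjusted p = 0.382). Wnt5a was 0.39 and 0.62 higher in MGE (adjusted p = 0.396), and Lef1 differed by -0.30 and -0.43 (adjusted p = 0.461). Lmx1a differed by 0.29 and 0.31 (adjusted p = 0.700).

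At the level of elements, 32 of the 122 had a peak in all 8 samples and were tested, and 34 had a peak in a single sample. Lmx1a carried 33 elements, Lef1 28, Wnt9a 13, Rspo1 11, Wnt3a 10, Wnt8b, Wnt5a and Axin2 9 each, and Wnt2b 7. CTX E12.5 differed from the eminences at 4 of the 32, against a background of 26.1% of 68274 tested regions, and the eminences differed among themselves at 3 of the 32, against 9.39%. Neither share is above its background. Element values are normalised CPM relative to the counts in the tested regions.

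The element between the Wnt3a and Wnt9a starts (chr11:59302330-59303492), whose central bases are printed above, had 12.9 normalised CPM in CTX E12.5 and 8.84 in CTX E14.5, against 7.20 and 6.24 in MGE, 5.79 and 6.90 in LGE, and 5.56 and 6.70 in CGE. CTX E12.5 was highest, CTX E14.5 came next, and the eminences overlapped (log2 difference 1.01, SE 0.22, adjusted p = 0.0143 by edgeR). With a covered-length offset the difference was 0.35 (adjusted p = 0.415). The neighbouring element over the Wnt9a start (chr11:59304668-59310507) had 29.8 and 42.4 in the cortical samples against 14.6 to 27 in the eminences and did not pass the test (log2 difference 0.55, adjusted p = 0.124).

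The Lef1 body element (chr3:131153984-131158284) showed the largest log2 difference in CTX E12.5 among the 4 of the 32 tested elements that were called. It had 19.4 normalised CPM in CTX E12.5 and 15.3 in CTX E14.5, against 2.09 and 2.60 in MGE, 3.23 and 3.12 in LGE, and 6.14 and 5.21 in CGE. Both cortical samples were far above the eminences, which increased without overlap from MGE to LGE to CGE. The log2 difference of CTX E12.5 was 2.47 (SE 0.20, adjusted p = 0.000486) and the eminences differed as well (adjusted p = 0.0299), with MGE 0.44 below LGE and 1.28 below CGE on the log2 scale. The peak covered 4045 bp in CTX E12.5 and 461 to 1768 bp in the eminences, and with a covered-length offset the difference was 0.43 (adjusted p = 0.337). The call among eminences was lost under 8 of 13 alternatives, among them the offset (adjusted p = 0.694) and leaving out MGE replicate 1, LGE replicate 1 or 2, or CGE replicate 1 or 2 (0.0532 to 0.135 by edgeR).

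The Axin2 body element (chr11:108939814-108942427) had 11.5 normalised CPM in CTX E12.5 and 18.6 in CTX E14.5, against 5.31 and 5.52 in MGE, 3.21 and 4.19 in LGE, and 4.09 and 4.82 in CGE. Every eminence sample was below both cortical samples (log2 difference 1.37, SE 0.22, adjusted p = 0.00417). With a covered-length offset the difference was 0.74 (adjusted p = 0.0668). The element over the main Axin2 start (chr11:108919694-108931671) did not follow it, with 95.2 in CTX E12.5 against 87.4 to 109 in the eminences (adjusted p = 0.922).

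Among the Lmx1a elements, an intronic one was highest in MGE among the eminences. This Lmx1a intron element (chr1:167761218-167762979) had 6.70 normalised CPM in CTX E12.5 and 22.0 in CTX E14.5, against 10.6 and 8.58 in MGE, 4.66 and 5.74 in LGE, and 4.32 and 3.01 in CGE. MGE lay above LGE and CGE in both replicates, by 0.88 and 1.39 on the log2 scale (adjusted p = 0.0364), and CTX E12.5 fell between them (log2 difference from the eminences 0.24, adjusted p = 0.579). The call among eminences was lost under 9 of 13 alternatives, among them the covered-length offset (adjusted p = 0.212), the replicate block (0.0549) and leaving out any 1 eminence replicate but LGE replicate 2 (0.0538 to 0.126 by edgeR). The element over the main Lmx1a start (chr1:167687365-167696688) had 28.7 in CTX E12.5 and 26.2 to 50.6 in the eminences and passed neither test (adjusted p = 0.558 and 0.150).

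**Figure D2:**
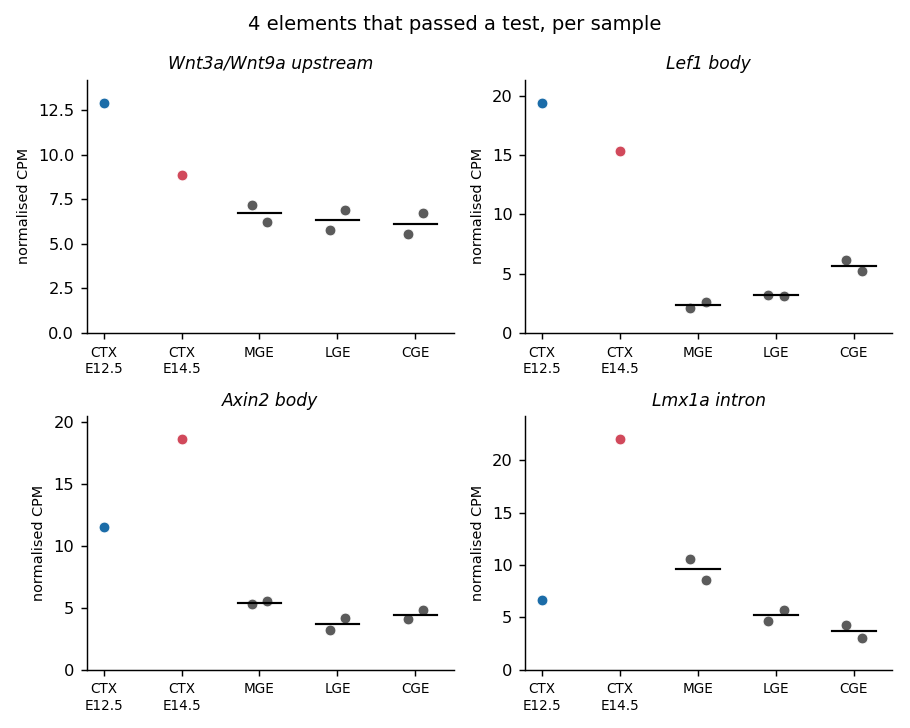
Normalised CPM (y axis, linear from 0) of 4 elements that passed a test, with 1 point per sample and a line at the mean of an eminence's 2 replicates. The Lef1 and Axin2 elements separate both cortical samples from the eminences, and the Lmx1a element is highest in CTX E14.5 and, among the eminences, in MGE.

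Of the other elements that set the hem-like nuclei apart, described further on, 3 with a peak in all 8 samples passed neither test. The Wnt3a intron element (chr11:59263438-59265251) had 10.4 normalised CPM in CTX E12.5, 27.5 in CTX E14.5, 18.0 and 15.2 in MGE, 11.6 in LGE replicate 1, and 10.8 and 12.2 in CGE, with LGE replicate 2 just above CGE (adjusted p = 0.269 for CTX E12.5 and 0.173 among eminences). The Rspo1 start element (chr4:124983779-124992120) had 6.69 and 41.0 in the cortical samples, 19.0 and 11 in MGE, 3.88 and 7.73 in LGE, and 4.07 and 6.36 in CGE. MGE was again highest (adjusted p = 0.0755 among eminences). The element over the 3′ part of Wnt9a (chr11:59328397-59331157) had 7.69 in CTX E12.5 and 6.82 to 9.20 in the eminences, with 26.6 in CTX E14.5 (adjusted p = 0.972 and 0.478).

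CTX E14.5, the sample in which the genes were noticed, held the highest value for 7 of them. Of the 85 elements with at least 60 counts there, 62 had at least 2 times the mean of the other 7 samples, against 36.4% of 116647 such regions. This share describes how the genes were chosen and is not evidence about them. The element over the main Wnt8b start (chr19:44492009-44499737) was an example, with 51.8 normalised CPM in CTX E14.5, 6.27 in CTX E12.5, 1.34 and 0.953 in MGE, 0.379 in CGE replicate 2, and no peak in LGE or in CGE replicate 1. Covered length moved with these values as well: Rspo1 had 14.8 kb of peak in CTX E14.5 against 0.928 to 7.47 kb in the eminences, and 4.79 normalised CPM per covered kilobase against 1.57 to 3.55.

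A Lef1 intron element (chr3:131180229-131182929), named after its values were seen, had 20 and 33.0 normalised CPM in the cortical samples and at most 4.62 in the eminences, with no peak in MGE replicate 1. A second Lef1 intron element (chr3:131159054-131162242) had 32.6 in CTX E14.5 and 0.0309 to 6.70 in the eminences, with CTX E12.5 between them (log2 difference 2.23, SE 0.96, adjusted p = 0.140). The lowest of these values rests on 4 counts in MGE replicate 1.

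Within CTX E14.5, nuclei were clustered without the members' elements, and 1 of 13 groups had the highest mean fold of the 9 genes. It held 464 nuclei (9.38%) with a median of 14431 counts, against 16029 in the 4305 other nuclei. In it 12 of 14 cortical hem markers, 7 of which are among the 9 genes, were above the rest of the sample by more than 0.5 on the log2 scale, against 4.4% of 18498 genes. The 7 were fixed by how the genes and the group were chosen and are no support for its name. Of the 7 hem markers that are not among the 9 genes, Rspo2, Rspo3, Bmp4, Bmp6 and Bmp7 were above that limit and Msx1 and Gdf7 were not. The group is called cortical hem-like, with the reserve that its 10 leading genes included the choroid plexus marker Folr1, that the 3 hem markers among them (Wnt3a, Rspo1 and Wnt9a) are all of the 9 genes, and that 1 of 7 choroid plexus markers passed the limit.

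A further group of 177 nuclei (3.58%, median 11510 counts) had 9 of 14 hem markers and 5 of 7 choroid plexus markers above the limit and none of the hem markers among its 10 leading genes, against 10.8% of all genes above the limit. Of the 7 hem markers outside the 9 genes it had 6 above the limit, 1 more than the hem-like group, with the same median over the 14 markers (0.90). It was left without a name because of its choroid plexus markers and because no hem marker was among its leading genes. The hem markers outside the 9 genes do not set the 2 groups apart. Nor do all of the leading genes, since Folr1, Folr2 and Bhmt were among the 10 of both groups. The 2 groups were not separated at a lower clustering resolution, where the most open group held 636 nuclei, 456 of them from the hem-like group and 177 from the unnamed group. At a higher resolution it held 451, of which 447 were from the hem-like group. Pallial progenitor, glutamatergic, GABAergic and erythroid markers passed the limit in neither group, nor did mural or mesenchymal markers. Of 8 Cajal-Retzius markers, 2 passed it in the hem-like group and 1 in the unnamed group. In the unnamed group 2 of 4 microglial and 1 of 6 endothelial markers passed it as well, and in the hem-like group 0 of either.

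Values of nuclei sets are CPM relative to all counts in peaks of those nuclei, and are sums over 1 library without a replicate check. Wnt3a had 313 CPM in the hem-like group, 233 in the unnamed group and 62.5 in the other nuclei. Wnt9a had 281, 217 and 64.4 CPM in the same order, and Rspo1 had 248, 82.8 and 59.4. Rspo1 in the unnamed group was nearer to the other nuclei than to the hem-like group, while Wnt3a and Wnt9a were high in both groups. Lmx1a had 366, 378 and 133 CPM and Wnt8b had 394, 310 and 204. Of these Wnt8b values, 254, 217 and 143 CPM were in the last element, which overlaps Sec31b.

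Wnt2b and Wnt5a, which were not high in CTX E14.5 as a whole, were also above the other nuclei in the hem-like group. Wnt2b had 57.3 CPM there and 28.4 in the other nuclei (log2 difference 0.90), and Wnt5a had 89.1 and 52.5 (0.71). Neither gene was most open in the hem-like or the unnamed group. The highest log2 fold of any CTX E14.5 group over the rest was 1.15 for Wnt2b and 0.94 for Wnt5a, outside these 2 groups. Axin2 had 308, 345 and 235 CPM, which in the hem-like group was a smaller fold than that of each of the 5 ligands and in the unnamed group a larger one than those of Wnt2b and Wnt5a (35.7 and 61.7 CPM there). Lef1 was lower in both groups, with 207 and 189 CPM against 292. The hem-like group held 8.23% of the sample's counts in peaks but 29.4% of those of Wnt3a, 26.8% of Wnt9a, 27% of Rspo1 and 18.9% of Lmx1a.

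**Figure D3:**
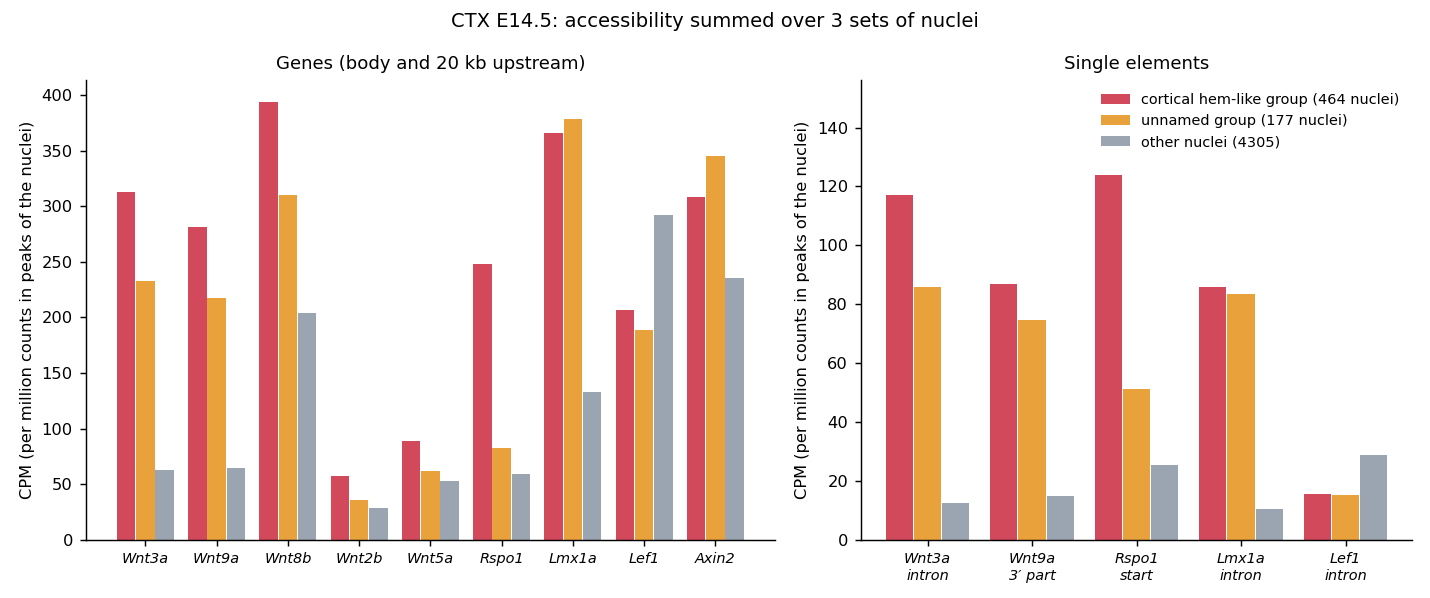
CPM (y axis, linear from 0) summed over the nuclei of the hem-like group, the unnamed group and the remaining nuclei of CTX E14.5, for the 9 genes (left) and 5 elements (right). Bars have no error because they are sums over 1 library; Lef1 is the gene, and its intron the element, with the lower bars in both groups.

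At some elements, shown because their contrast was steep, the hem-like nuclei stood further from the other nuclei than at the whole gene. The Wnt3a intron element had 117, 85.7 and 12.4 CPM and the Lmx1a intron element 85.7, 83.6 and 10.3. The element over the 3′ part of Wnt9a had 87.0, 74.8 and 14.7 CPM, and the Rspo1 start element 124, 51.2 and 25.5. An Rspo1 upstream element, also named after its values were seen, had 39.9 CPM in the hem-like group and was at 4.62 and 7.79 in the unnamed group and the other nuclei. Other elements differed less than their gene, among them a Wnt2b element (log2 difference 0.60, against 0.90 for the gene).

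The start elements of Lmx1a and Axin2 moved less. The main Lmx1a start had 67.8 CPM in the hem-like group against 33.0 in the other nuclei, a log2 difference of 0.94, where the intron element differed by 2.57. The main Axin2 start differed by 0.33. The Lef1 elements with at least 300 counts ranged from 0.11 to -1.38, the lowest being the intron element named above (8.35 CPM against 29.7).

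**Figure D4:**
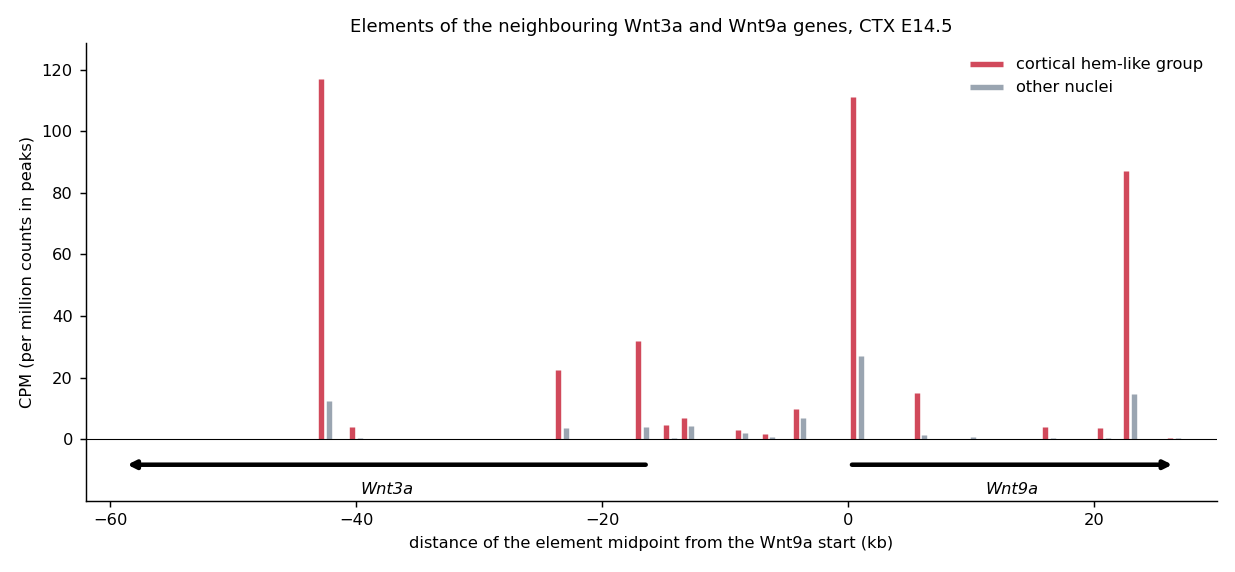
CPM (y axis) of the elements of Wnt3a and Wnt9a in the hem-like group and the other nuclei of CTX E14.5, placed by the distance of their midpoint from the Wnt9a start (x axis, kb); arrows give the extent and direction of the 2 genes. The highest bars are the Wnt3a intron element (117 CPM), the Wnt9a start element (111) and the element over the 3′ part of Wnt9a (87.0).

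The 3 elements called higher in CTX E12.5 were not those with the steepest contrast in the hem-like nuclei. The element between the Wnt3a and Wnt9a starts had 9.84 CPM in the hem-like group and 7.0 in the other nuclei (log2 difference 0.31), and the Lef1 body element had 7.28 and 13.6 (-0.60). The Axin2 body element had 31.4 and 13.7 (0.96).

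The other 7 samples were clustered in the same way, and no group in them had as high a mean fold of the 9 genes. The genes were chosen from a group of CTX E14.5 nuclei, so this follows from the choice and is not evidence about them. The mean log2 fold of the 9 genes in each sample's most open group was 1.09 in CTX E14.5, 0.31 in CTX E12.5 (41 nuclei) and 0.17 to 0.30 in the eminences. The highest Wnt3a fold of any group was 2.14 in CTX E14.5 and 0.30 to 0.75 elsewhere, and CTX E14.5 also held the highest fold of Wnt9a, Wnt2b, Wnt5a, Rspo1 and Lmx1a. For 3 genes it did not: the highest Wnt8b fold was 0.91 there and 0.53 to 1.16 elsewhere, that of Axin2 0.51 and 0.38 to 0.97, and that of Lef1 0.31 and 0.24 to 0.73. In CTX E12.5, 1 group reached 1.51 for Rspo1, against 1.96 in CTX E14.5. The clusters of each sample were built on its own peaks, and which part of the cortex each dissection held is not given in the labels.

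Co-opening was measured as the number of nuclei open at both genes over the number expected if both opened independently within 10 strata of depth. A gene was open with at least 1 count in its merged elements. These can hold peaks outside the gene's window, which the gene sums above leave out. In LGE replicate 1, for example, Wnt8b had a gene sum of 1162 counts but was open in 1702 nuclei. Co-opening is given as a description, since all nuclei of a sample share 1 library. Over the 36 pairs of genes the median ratio was 1.04 in CTX E14.5, 1.01 in CTX E12.5 and 1.01 to 1.02 in the eminences. A gene open in most nuclei keeps the ratio near 1, so the medians have a ceiling that differs between samples. In CTX E14.5, Lef1 was open in 81.5% and Axin2 in 78.1% of nuclei. Wnt3a and Wnt9a, with their 7 shared elements left out, had the highest ratio in CTX E14.5, 1.78 (361 nuclei against 203 expected). It was 1.09 in CTX E12.5, 1.18 to 1.42 in the eminences, 1.27 in CTX E14.5 without the 2 groups and 1.07 within the hem-like group.

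The share of open nuclei, counted over the same merged elements, varied widely between genes. Lmx1a was open in 64.2% of CTX E14.5 nuclei (95% exact interval 62.8 to 65.5, counting error only) and 58.0% of CTX E12.5 nuclei. Counts were then thinned to about 5000 per nucleus in the regions with a peak in all 8 samples, so total depth was not made equal. Nuclei with fewer were left out, 203 of 4946 in CTX E14.5 and 324 of 4108 in CTX E12.5. After thinning, the shares were 47.4% and 35.8%. Rspo1 was open in 39.1% and 12.2%, or 26.4% and 4.52% after thinning, and Wnt8b in 71.0% and 34.0%, or 57.5% and 16.1%. The last Wnt8b element, which overlaps Sec31b, was alone open in 59.6% of CTX E14.5 nuclei outside the hem-like and unnamed groups. Wnt3a had close shares in the 2 samples, 43.8% and 47.4%, or 29.6% and 25.3% after thinning, so the order of the samples changed with the thinning.

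Co-opening was also measured between single elements. For each gene the element, of those reported here, with the largest ratio of CTX E14.5 to the other samples was used among those with a peak in all 8 samples, at least 500 counts and no other member nearby, a choice made after their values were seen and from the sample that chose the genes, and 32 pairs on different chromosomes were compared. In CTX E14.5 the Wnt3a intron element and the Lmx1a intron element were both open in 245 nuclei against 111 expected (ratio 2.21). The Wnt9a element and the Lmx1a element had a ratio of 1.93, Rspo1 and Lmx1a 1.70, Wnt3a and Rspo1 1.70, and Wnt9a and Rspo1 1.51. The median of the 32 pairs was 1.12, with 5 pairs at 1.5 or more. In CGE replicate 1 the median was 1.11, with 4 such pairs. These were other pairs, with 7.03 to 28.9 nuclei expected, against 111 to 198 for the 5 in CTX E14.5. The medians of the other 6 samples were 1.01 to 1.07 with 0 to 2 such pairs.

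The 2 groups were picked as the most open at these genes, so a drop of these ratios without them was built in. Without the 2 groups the ratios of the same 5 pairs were 1.43, 1.45, 1.46, 1.37 and 1.29, and the median was 1.07. The Wnt3a and Lmx1a elements had a ratio of 1.21 in CTX E12.5 (74 nuclei against 61 expected) and 0.63 to 1.32 in the eminence samples. The Lef1 intron element had a ratio of 0.85 to the Lmx1a element in CTX E14.5 (129 nuclei against 152) and 0.99 without the 2 groups, and of 0.75 to the Wnt3a element (138 nuclei against 184) and 0.84 without the 2 groups. Ratios of at least 1.5 also occurred elsewhere, among them 1.81 for Wnt8b and Lmx1a in CTX E12.5 (28 nuclei against 15.5), 2.04 for Lmx1a and Axin2 in CGE replicate 1 (24 against 11.8) and 2.04 for Wnt9a and Lef1 in MGE replicate 2, from 16 nuclei against 7.84 expected.

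**Figure D5:**
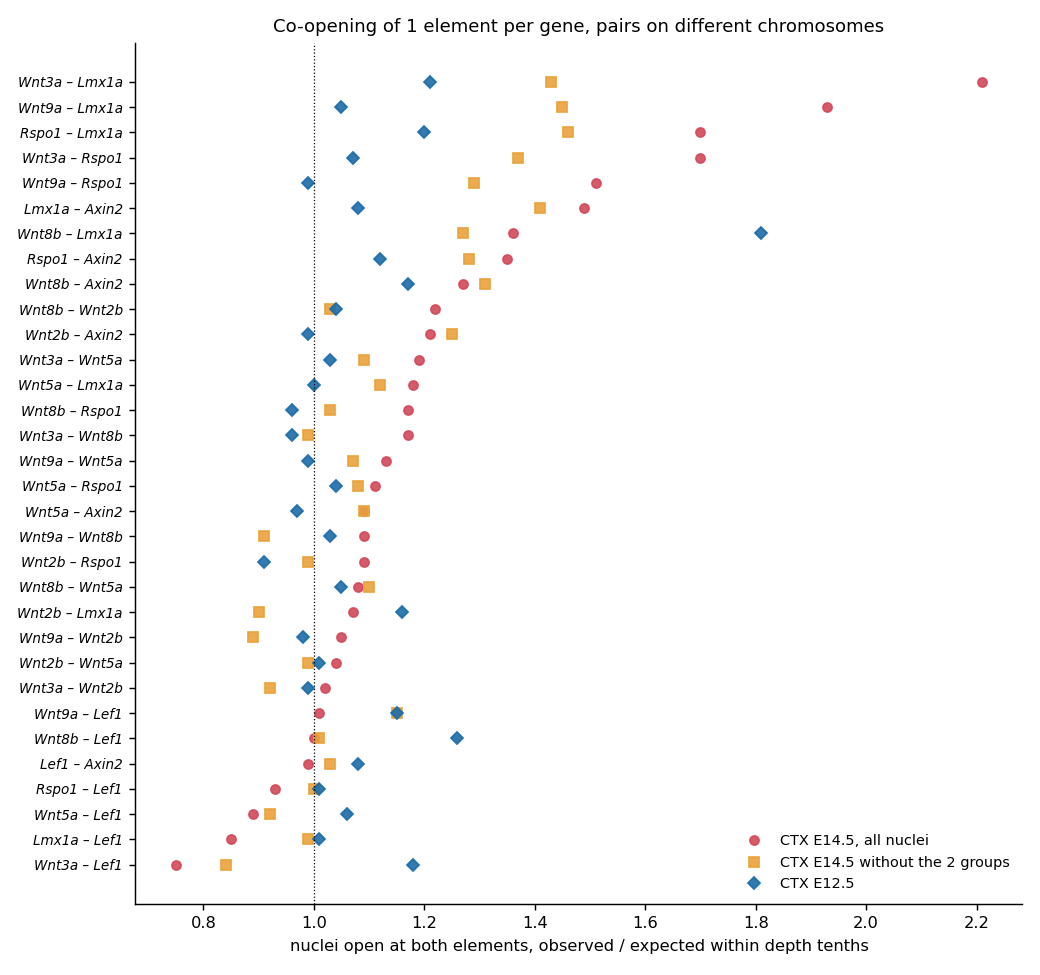
Observed over expected nuclei open at both elements (x axis) for the 32 pairs of members' elements on different chromosomes (y axis, in the order of CTX E14.5), in CTX E14.5, in CTX E14.5 without the 2 groups and in CTX E12.5 where at least 5 nuclei were expected. The highest CTX E14.5 ratios, 2.21 and 1.93, both involve the Lmx1a intron element.

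The 5 genes with the highest co-opening with Lmx1a in CTX E14.5, among 17896 ranked, were Olfr1228 (ratio 1.34), Vmn1r13 (1.32), Cfhr2 (1.31), Olfr495 (1.30) and 4921539E11Rik (1.28). The first 4 had no peak in CTX E12.5, and the last had a ratio of 0.98 there. Each was open in 58 to 89 nuclei of CTX E14.5, so these ratios rest on small numbers.

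The other genes of the Wnt pathway were called in both directions in CTX E12.5. Of 17 ligands outside the 9 genes, 1 was called, Rspo3 (49.7 normalised CPM against 24.6 to 35.2 in the eminences, log2 difference 0.78, adjusted p = 0.0376), and the median of the list was -0.06, against -0.01 over all genes. Of 20 receptors, 4 were higher and 3 lower, with a median of 0.17, against 10.0% of all genes higher, 1.64% lower and 11.7% in either direction. Ror2, a receptor for Wnt5a, had 212 against 83.6 to 116 (log2 difference 1.13, adjusted p = 0.00343), Ror1 differed by 0.93, Lgr6 by 0.76 and Ryk by 0.66. The Frizzled receptors Fzd10, Fzd5 and Fzd4 fell by 0.91, 0.90 and 0.67 on the log2 scale. DESeq2 called 4 of the ligands and 11 of the receptors, among 4662 of 19031 genes, and 4 and 12 had an unadjusted p under 0.05 by edgeR, as did 4837 of 18982 genes.

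Of 16 inhibitors, 2 were higher (median 0.04). Nkd1, an intracellular antagonist, had 140 normalised CPM against 41.8 to 53.8 in the eminences (log2 difference 1.54, adjusted p = 0.00279), and Dkk3 differed by 0.60, while 5 inhibitors were called by DESeq2 and 5 had an unadjusted p under 0.05. Of 11 effectors 0 were called by edgeR, with 2 at an unadjusted p under 0.05 and 2 by DESeq2, and of 3 target genes 0 were called, with 1 on either count, against the background of 11.7%. Of 16 other genes of the hem and dorsal midline, 6 were higher and 1 lower (median 0.32): Emx1 differed by 1.57, Dmrt3 by 1.45, Bmp6 by 1.18, Dmrta2 by 0.98, Emx2 by 0.65 and Lhx2 by 0.63, and Zic1, a midline factor, fell by 1.03. DESeq2 called 9 of the 16, and 10 had an unadjusted p under 0.05. Several of these are also known from the cortex as a whole. With a covered-length offset 0 of all genes were called, so these calls were lost too.

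Among the eminences 0 genes of any of these lists were called by edgeR. At an unadjusted p under 0.05 there were 6 of 17 ligands, 4 of 20 receptors, 2 of 16 inhibitors, 2 of 11 effectors, 0 of 3 targets and 5 of 16 hem and midline genes. DESeq2 called 4, 4, 2, 2, 0 and 4 in the same order. Over all genes 1675 of 18982 had an unadjusted p under 0.05, and DESeq2 called 1530 of 19031.

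Summed levels of marker lists were compared in the same way. The glutamatergic list had 812 normalised CPM in CTX E12.5 and 400 in CTX E14.5, against 266 to 321 in the eminences, the GABAergic list 285 and 370 against 874 to 1904, and the pallial progenitor list 1383 and 1748 against 1081 to 1384. The first 2 differed between CTX E12.5 and the eminences by more than any called member did. The 7 hem markers outside the members had a summed 285 normalised CPM in CTX E12.5 and 439 in CTX E14.5, against 231 to 272 in the eminences. The 7 choroid plexus markers had 212 and 280 against 176 to 283, so CTX E14.5 lay within the range of the eminences. The 8 Cajal-Retzius markers had 847 and 680 against 525 to 677. The endothelial list had 183 and 147 against 112 to 155, the mural or mesenchymal list 176 and 230 against 196 to 276, the microglial list 235 and 197 against 177 to 217 and the erythroid list 92.3 and 103 against 84.0 to 92.0. Their part in the members' values was not tested.

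Counts of transcription factor motifs, deposited per nucleus, were summed per sample and tested for the TCF/LEF motifs (LEF1, Tcf7, TCF7L1 and TCF7L2) and for LMX1A and LMX1B. Of the 6, 0 were called between CTX E12.5 and the eminences by edgeR, against 0.864% of 579 motifs, and 0 among the eminences, against 0.00%. At an unadjusted p under 0.05 and by DESeq2 the count was 0 as well in both comparisons. The largest difference was that of LMX1A, 0.94 on the log2 scale (SE 0.47, adjusted p = 0.298), with 5872 normalised CPM in CTX E12.5 against 2160 to 4973 in the eminences. With replicate number as a block it was 1.36 (adjusted p = 0.0920). LMX1B differed by 0.52 (adjusted p = 0.249), or 0.69 with the block (0.0920), and the TCF/LEF motifs by -0.05 to -0.23, or -0.14 to -0.39 with the block (0.136 to 0.430). The block raised the count over all 579 motifs from 5 to 16, with 0 of the 6 among them. In CTX E14.5 the 6 motifs differed between the hem-like group and the other nuclei by -0.06 to 0.06 on the log2 scale.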

How the data were processed

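Single-nucleus ATAC-seq libraries of 8 samples were made with a droplet kit. Per the submitters' processing notes, reads were processed with Cell Ranger ATAC 1.2.0 and GRCm38 (mm10). The authors deposited, for each sample, its own peak list, raw counts per peak and nucleus and raw counts per motif and nucleus. The published article describes RNA sequencing of other libraries and was not used for these files. Nuclei had been filtered before deposit, all were kept, and no doublet caller was run.

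Peaks were merged over the 8 samples. A gene's count was the sum over a sample's peaks overlapping its body or the 20 kb upstream (GENCODE M21). A peak was counted for every gene it overlapped. Because peaks were called per sample, such sums follow the length called as peak. Counts summed per sample were tested with edgeR 4.0.16 in R 4.3.3 (quasi-likelihood test, TMM scaling, filterByExpr, Benjamini-Hochberg adjustment over all features, threshold 0.05) in 5 groups. The contrasts were CTX E12.5 against the mean of the 3 eminences, and any difference among eminences. The spread came from the eminence pairs, and CTX E14.5 entered no test. DESeq2 1.42.0, the replicate block, a covered-length offset, other windows and leaving out each replicate were tried as alternatives. In data simulated for the gene comparison with CTX E12.5, 70.6% of genes changed 2-fold and 85.7% of those changed 4-fold were called, and 0.0702% of unchanged genes. The simulated counts were independent, with no difference in called peak length between samples and no effect of replicate number. These rates therefore do not cover calls that depend on either. The fitted folds of the 3 called members, 1.56 to 1.71, were below the smallest simulated fold.

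The members and all lists were chosen with earlier results of these data known. All 9 members are named. Elements named are those over a start, up to 3 others with the smallest p for CTX E12.5, up to 2 with the smallest p among eminences, and up to 2 with at least 60 counts and the largest ratio in CTX E14.5. One element that passed a test is not reported here, but it stays in the sums and counts over elements. Nuclei were clustered per sample on peaks outside the members (latent semantic indexing, 30 components, 20 neighbours, Leiden resolution 1 with leidenalg 0.10.2). Sequences were read from the RefSeq GRCm38.p6 genome, within whose chromosome lengths all peaks lay.

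Same-numbered eminence samples deviated together for motifs (correlations 0.416, 0.396 and 0.283 of the deviations), so their replicate block is given beside the result. For genes the correlations were 0.296, 0.081 and 0.264, and for regions 0.074, -0.042 and 0.324, so not every correlation was over 0.1, the criterion used. This does not exclude a pairing of genes or regions, and the share of odd counts differed between the numbers. The gene calls of Wnt3a, Wnt9a and Lef1 in CTX E12.5 were lost with the block.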

Additional observations from a re-analysis of the deposited data

How the results depend on the processing

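Of 365 values of single genes, elements and motifs under an alternative, 308 kept their side of the threshold. In the comparison with CTX E12.5 these also kept their direction. A call was lost in 37 and gained in 4, and 16 changed sign, among them Lef1 with the offset, which also lost its call. Most of the 365 belong to results that were not called and so could not lose a call. The 3 members called in CTX E12.5 became 0 with the replicate block, the covered-length offset or peaks within 1 kb of a start, and 1 to 3 when a replicate was left out, Wnt3a alone being called without LGE replicate 1 or LGE replicate 2. With shared regions, Wnt3a lost its call (adjusted p = 0.079 by edgeR), and with 2 kb upstream Wnt9a did (0.104). The cause of these losses was not tested, except that the offset removed calls of all genes.

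The 2214 genes called in CTX E12.5 became 4662 by DESeq2, 1134 with the replicate block, 0 with the offset, 447 near starts, 1196 with shared regions only and 1621 to 2967 without 1 replicate. The 13 genes called among eminences became 1530 by DESeq2, 1 with the block, 8 with the 2 CTX samples as 1 group, 0 with the offset, 28 with shared regions and 0 (without MGE replicate 1) to 48 (without MGE replicate 2), and of members 3 by DESeq2 and 0 to 1 without 1 replicate (Wnt8b, without LGE replicate 2, adjusted p = 0.0206 by edgeR). The 17789 regions called in CTX E12.5 became 10133 with the offset. The 6410 called among eminences became 13489 by DESeq2, 70 with the CTX samples as 1 group and 2303 to 7175 without 1 replicate, lowest without CGE replicate 2, and 2470 without MGE replicate 1 and 2945 without CGE replicate 1. The 5 motifs became 105 by DESeq2, 16 with the replicate block and 1 to 7 without 1 replicate, and 0 motifs among eminences became 12 by DESeq2. The replicate pairing of motifs changed no call of the 6 named.

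The Axin2 and Lef1 body elements each lost the CTX E12.5 call under 1 of 11 alternatives, the offset, and the element between Wnt3a and Wnt9a under 2. Among eminences the Lef1 element lost it under 8 of 13 and the Lmx1a intron element under 9, with adjusted p of 0.0345 to 0.135 and 0.0446 to 0.126 by edgeR without 1 replicate.

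Signs changed for Wnt8b (0.38 with the replicate block, 0.42 without LGE replicate 2, 0.93 near starts, -0.43 to 0.42 over all replicates left out), Wnt2b (-0.04 with the block, -0.20 with the offset, -0.28 with 2 kb upstream, -0.14 near starts, -0.21 with shared regions), Rspo1 (-0.04, -0.11 and -0.02 without CGE replicate 1, LGE replicate 1 and MGE replicate 2, up to 0.30 without LGE replicate 2, -0.09 with shared regions), and with the offset for Lmx1a (-0.03), Lef1 (-0.09) and Axin2 (-0.44). The TCF7L2 motif was at 0.00 without LGE replicate 1.

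The median co-opening of 1.01 in CTX E12.5 was 1.02 at 3 counts or more and away from starts, and that of 1.04 in CTX E14.5 was 1.09, 1.07 and, without the 10% deepest nuclei, 1.05. The highest ratio over the 36 pairs moved more, from 1.78 to 3.40 at 3 counts or more and 2.03 without the deepest nuclei in CTX E14.5, and from 1.35 to 2.28 at 3 counts or more in MGE replicate 1. The median share of open nuclei of 41.8% and 44.7% became 23% and 30.7% when thinned. The element-level co-opening, the clustering resolutions and the sets without the 2 groups were chosen after seeing the data. Low counts limit the second Lef1 intron element, with 4 in MGE replicate 1.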
